A study of Homo sapiens with 18 samples.

Results

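The histone cluster genes are the genes whose symbols in the deposited tables begin with HIST1H, HIST2H, HIST3H or HIST4H, the older names of the histone genes that lie in clusters. There were 54 such genes among 31004 listed: 4 named for H1, 14 for H2A, 16 for H2B, 9 for H3 and 11 for H4. Of these, 41 lie in the HIST1 cluster on chromosome 6, 9 in HIST2 and 3 in HIST3 on chromosome 1, and 1 is HIST4H4 on chromosome 12. The annotation gives 5 of them as pseudogenes (HIST1H1PS1, HIST1H1PS2, HIST1H3PS1, HIST2H2BC and HIST2H2BD). HIST1H1PS2 is counted under H1 by its symbol, although its current symbol, H3P26, is that of an H3 pseudogene. The family was selected on a measured value of 1 of its members, the difference between the log2 fold changes of HIST2H2BE with hnRNPK in the CRLM1 and Antisense backgrounds. HIST2H2BE is therefore described by its values with no test, and every count of members with a test is over the other 53.

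RNA was sequenced from HCT116, an established human colorectal carcinoma line, in 6 groups of 3 libraries each. The cells carried an empty control vector (Ctrl), a vector that overexpressed the long noncoding RNA CRLM1, or a vector with its antisense sequence (Antisense), and each of these backgrounds received an hnRNPK overexpression construct or its negative control (NC). HNRNPK encodes a nucleic acid binding protein, and CRLM1 is listed in the tables as RP4-710M16.2 (LINC01767). The groups are named below by background and construct, for example Ctrl_NC. All of them carried a vector and a construct, the replicates are biological ones, and whether each background was a pool or a single clone is not given in the sources used here. Total counts per library ran from 19732681 to 27039520.

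HNRNPK was at 424 to 480 CPM in the 9 NC libraries and at 491 to 713 CPM in the hnRNPK libraries, where CPM is counts per megaread after TMM scaling over all libraries. RP4-710M16.2 had 0 counts in the Ctrl libraries, 580 to 659 CPM in the CRLM1 libraries and 39.1 to 50.01 CPM in the Antisense libraries, and whether the counting kept the strands apart is not stated. The epithelial markers EPCAM, CDH1, KRT8, KRT18, KRT19 and CLDN4 were each at 83.3 CPM or more in every library. PTPRC, COL3A1, PECAM1 and ALB had at most 4 counts in a library, whereas COL1A1 reached 32.8 CPM and DES 2.02 CPM. Ctrl_hnRNPK replicate 3 correlated at 0.991 to 0.992 with the Ctrl_NC libraries and at 0.952 to 0.959 with its own replicates (Pearson's r on the log2 CPM scale over 12959 genes, which are no independent replicates). CRLM1_hnRNPK replicate 3 correlated at 0.985 to 0.986 with the CRLM1_NC libraries and at 0.945 to 0.951 with its own replicates. Both stand apart from their group, so hnRNPK comparisons are given with and without the third hnRNPK library.

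Histones H2A, H2B, H3 and H4 form the protein core around which DNA is wrapped, and H1 binds the linker DNA between cores. Most genes of the clusters are transcribed when DNA is replicated, and their messages end in a stem-loop that is bound by SLBP, in place of a poly(A) tail. Some cluster genes, among them HIST1H1C, HIST1H2AC, HIST1H2BC, HIST1H2BD, HIST1H2BK and HIST2H2BE, have also been described with polyadenylated transcripts. Variant histones such as H3.3 or H2A.Z are encoded elsewhere, mostly with introns and poly(A) tails. Whether the libraries were made from poly(A) RNA or from RNA depleted of ribosomal RNA is not given in the sources used here.

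The stem-loop was present in the reference sequence of each member that could be read. It was searched by the 16-base consensus of the histone stem-loop, on the strand of the gene, in the 100 bases after the stop codon, and was found in 46 of 46 members, against 72 of 19895 coding genes of Gencode version 44 (0.362%). The stem-loops of the most abundant member of each class, and of HIST2H2BE, HIST2H2BF and HIST1H2BD, are shown because the comparisons below turn on these genes (GRCh38, sense strand, stem-loop in capitals, 5 flanking bases on each side).
HIST1H1C: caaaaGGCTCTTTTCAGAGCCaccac
HIST3H2A: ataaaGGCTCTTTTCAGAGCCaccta
HIST2H2BE: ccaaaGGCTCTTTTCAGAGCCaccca
HIST2H2BF: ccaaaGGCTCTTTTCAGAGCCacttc
HIST1H2BD: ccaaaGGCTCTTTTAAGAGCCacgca
HIST1H3H: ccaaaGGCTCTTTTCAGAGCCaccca
HIST1H4J: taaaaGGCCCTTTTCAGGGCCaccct
The loops of HIST2H2BE and HIST2H2BF are the same 16 letters as those of HIST1H1C, HIST3H2A and HIST1H3H, and the H4 gene carries another stem. In HIST2H2BE, whose annotated transcript is 1 exon of 2224 bases, the stem-loop begins 57 bases after the stop codon. In HIST1H1C, with a transcript of 731 bases, it begins 28 bases after it.

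The promoters of 44 coding members were taken from RefSeq (GRCh38.p14, 250 bases before to 50 after the start), out of 35116 promoters in all. TATAAA was found on either strand in 31 of the 44 (70.5%) against 11.5% of all promoters. CCAAT was found on either strand in 36 of the 44 (81.8%) against 34.6%, and these were each of the 35 H1, H2A, H2B and H3 promoters and 1 of 9 H4 promoters. The octamer ATTTGCAT was found on either strand in 18 of the 44 (40.9%) against 1.77%, and lay in 10 of 14 H2B and 8 of 13 H2A promoters. Matches of different strings overlapped in 0 of the 44. Neighbouring members that are read in opposite directions from nearby starts share part of their promoter windows. A match on either strand can therefore be counted in both promoters, and the counts are not of separate sites. The octamer of HIST2H2BE, for example, is the same bases as the one counted for HIST2H2AC. The promoters of HIST2H2BE and of HIST2H2BF and HIST2H2AA4, the members with the lowest fold changes below, are printed together with that of HIST1H1C, the most abundant member, with matches to these strings on either strand in capitals.
HIST2H2BE, chr1:149886633-149886932, minus strand: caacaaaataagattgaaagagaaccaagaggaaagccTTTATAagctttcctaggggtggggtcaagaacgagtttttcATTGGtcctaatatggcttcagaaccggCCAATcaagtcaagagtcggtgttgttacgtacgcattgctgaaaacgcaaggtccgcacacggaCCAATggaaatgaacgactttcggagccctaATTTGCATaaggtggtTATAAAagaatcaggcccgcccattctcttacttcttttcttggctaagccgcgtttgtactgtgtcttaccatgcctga
HIST2H2BF, chr1:149812321-149812620, minus strand: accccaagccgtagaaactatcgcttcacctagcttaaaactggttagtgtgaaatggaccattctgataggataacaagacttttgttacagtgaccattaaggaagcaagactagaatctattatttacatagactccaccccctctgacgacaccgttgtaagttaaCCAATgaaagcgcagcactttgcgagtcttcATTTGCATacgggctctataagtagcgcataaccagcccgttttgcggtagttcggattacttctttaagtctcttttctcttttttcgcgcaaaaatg
HIST2H2AA4, chr1:149850811-149851110, plus strand: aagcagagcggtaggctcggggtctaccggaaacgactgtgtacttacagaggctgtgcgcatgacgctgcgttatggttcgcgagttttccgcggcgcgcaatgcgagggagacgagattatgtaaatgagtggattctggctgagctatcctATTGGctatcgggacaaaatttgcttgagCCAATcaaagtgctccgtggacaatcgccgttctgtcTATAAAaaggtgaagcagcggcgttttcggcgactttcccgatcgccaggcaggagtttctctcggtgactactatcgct
HIST1H1C, chr6:26056421-26056720, minus strand: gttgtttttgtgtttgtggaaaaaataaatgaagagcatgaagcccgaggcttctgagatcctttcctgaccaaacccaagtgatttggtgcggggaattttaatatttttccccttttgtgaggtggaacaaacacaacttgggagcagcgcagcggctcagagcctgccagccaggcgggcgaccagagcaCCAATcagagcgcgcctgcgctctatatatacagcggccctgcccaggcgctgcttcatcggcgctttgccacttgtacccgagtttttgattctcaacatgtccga
HIST2H2BE has the octamer 46 bases before its start, and HIST2H2BF has it 49 bases before its start. HIST1H1C has 1 CCAAT, 57 bases before its start, and neither of the other strings. HIST2H2BE is read on the minus strand of chromosome 1 from position 149884459 to 149886682, and its start lies 236 bases from that of HIST2H2AC, which is read in the other direction. In all, 11 such pairs of members with starts at most 500 bases apart were found, and these include HIST3H2A with HIST3H2BB and HIST1H2BC with HIST1H2AC.

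Few members carried most of the signal. HIST1H1C (linker histone H1.2), HIST2H2BE, HIST3H2A and HIST1H2AC together took 81.7% of the members' mean CPM over the 18 libraries. Only 13 members averaged at least 1 CPM, 20 averaged between 0.1 and 1, and 21 averaged less than 0.1 CPM. In 11 members no library had more than 3 counts. The members together took between 0.00500% and 0.0300% of a library's counts.

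Levels between genes are compared on the FPKM scale, in which the authors divided by exon length. In Ctrl_NC, HIST1H1C was at 80.2 ± 4 FPKM (SD, n = 3), HIST3H2A at 31.7 ± 4.90, HIST2H2BE at 14.6 ± 0.622 and HIST1H2AC at 7.92 ± 0.770. These 4 levels differed by more than their spread. HIST1H2AC and HIST1H2BD, at 6.98 ± 0.583 FPKM, overlapped in their libraries. HIST2H2BE stood above its divergent partner HIST2H2AC, which was at 1.85 ± 0.713 FPKM, and HIST1H2AC stood above its partner HIST1H2BC, at 0.930 ± 0.144 FPKM. The partners HIST2H2AC and HIST1H2BC were chosen after their values were seen.

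**Figure D1:**
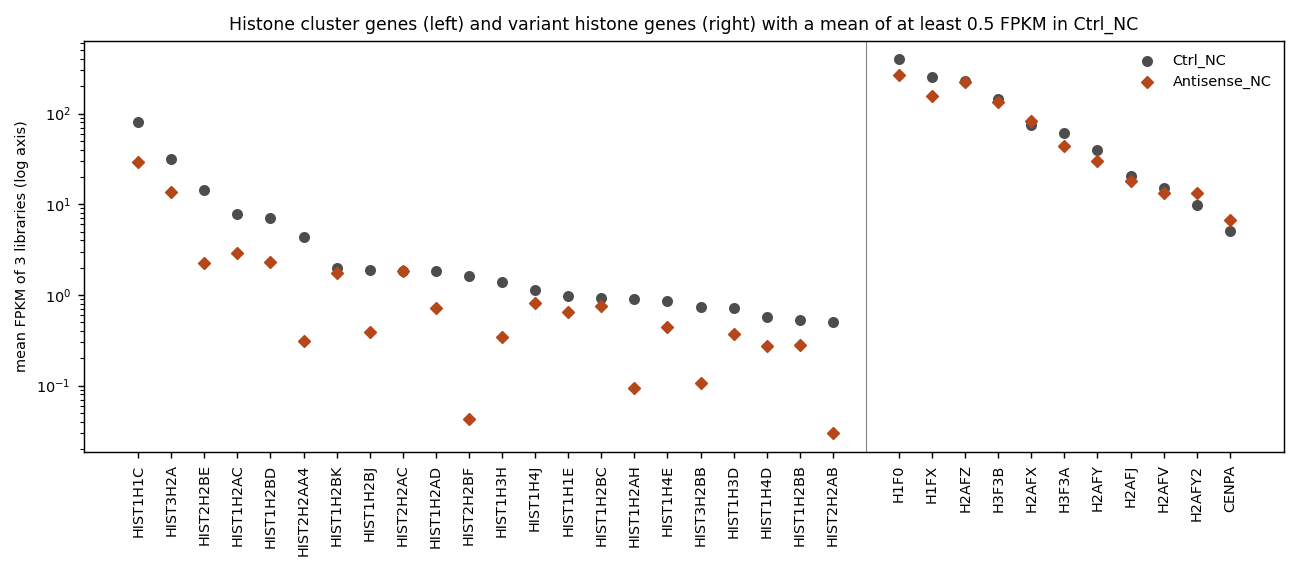
Mean FPKM of 3 libraries (log axis) in Ctrl_NC (circles) and Antisense_NC (diamonds) for 22 histone cluster genes on the left and 11 variant histone genes on the right, each with at least 0.5 FPKM in Ctrl_NC. HIST1H1C leads the cluster genes at 80.2 FPKM in Ctrl_NC, and HIST2H2BF lies at 1.61 FPKM in Ctrl_NC and 0.0433 in Antisense_NC.

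Summed over the mean FPKM of each gene, the 12 variant genes reached 1185 and the 54 cluster genes 129 as counted. Only uniquely mapped reads were counted, and whether poly(A) RNA was selected is not known, so these sums are not a comparison of total message. H1F0 (the linker variant H1.0) averaged 371 FPKM, H2AFZ (H2A.Z) 252 and H3F3B (one of the H3.3 genes) 158, whereas H3F3C averaged 0.00333 FPKM.

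The first comparisons ask how CRLM1 and its antisense sequence change expression against the empty vector, with no hnRNPK construct. They share the Ctrl_NC libraries and are set side by side. The summed level of all 54 members was 217 ± 9.85 CPM (SD, n = 3) in Ctrl_NC, 146 ± 3.45 CPM in CRLM1_NC and, lowest, 63.6 ± 5.80 CPM in Antisense_NC, with no overlap between the libraries of any of these groups. Without HIST2H2BE the sums were 170 ± 9.67, 114 ± 1.10 and 57.1 ± 5.38 CPM. By class, the Antisense_NC sum was 0.325 of that in Ctrl_NC for H1, 0.364 for H2A, 0.184 for H2B (0.276 without HIST2H2BE), 0.346 for H3 and 0.505 for H4. The H1 sum is in effect 1 gene, since HIST1H1C carried 98.2% of it. The H3 and H4 sums were small, 3.1 and 2.3 CPM in Ctrl_NC. HIST1H3H carried 68.7% of the H3 sum, and no H4 member averaged 1 CPM or more. In bulk RNA, fewer cells that express these genes and less of their RNA per cell cannot be told apart.

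**Figure D2:**
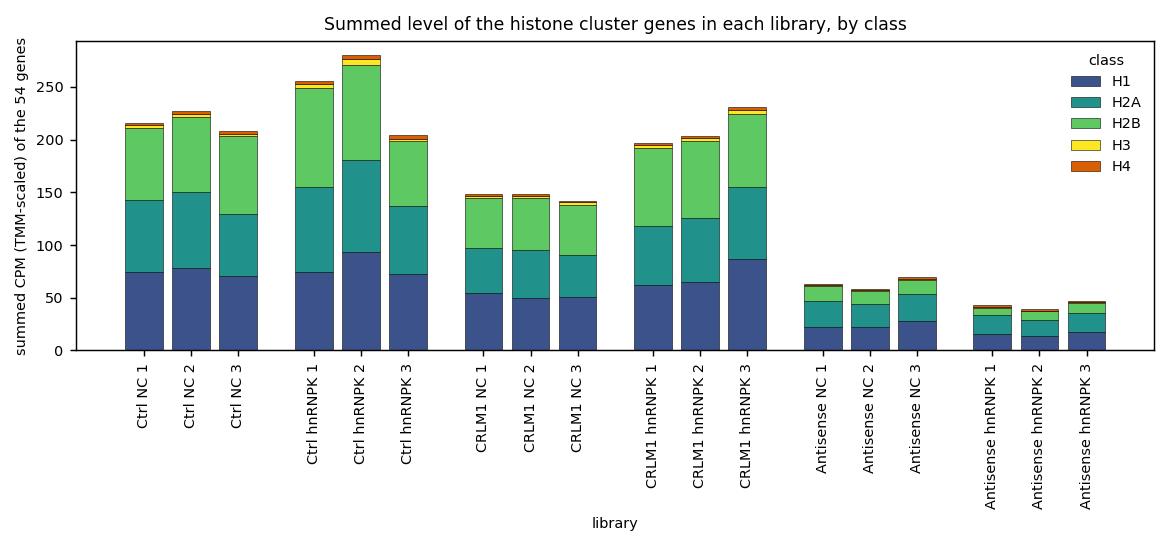
Summed CPM of the 54 histone cluster genes in each of the 18 libraries (1 bar each), stacked by class. The Ctrl_NC bars reach 208 to 227 CPM, the CRLM1_NC bars 142 to 148 and the Antisense_NC bars 58.3 to 69.8, and the H1, H2A and H2B segments fill nearly the whole of each bar.

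HIST2H2BE, whose values are a description, was at 44.7, 48.3 and 47.9 CPM in the Ctrl_NC replicates 1, 2 and 3, at 33.0, 35.2 and 27.7 CPM in CRLM1_NC, and at 5.99, 6.29 and 7.06 CPM in Antisense_NC. The libraries of the 3 groups did not overlap, and those of Antisense_NC were the lowest. The log2 fold change was -2.92 ± 0.0918 (SE) for Antisense_NC against Ctrl_NC, a level 7.57-fold lower, and -0.57 ± 0.0732 for CRLM1_NC against Ctrl_NC. Its partner HIST2H2AC was at 1.49, 0.800 and 0.802 CPM in Ctrl_NC and at 0.689, 1.48 and 0.512 in Antisense_NC. These values overlapped, and the log2 fold change of HIST2H2AC was -0.20 ± 0.392 with an adjusted p of 0.669 (from the quasi-likelihood test of edgeR, adjusted by Benjamini-Hochberg across every gene in the fit, as is each adjusted p below).

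Against Ctrl_NC, 10 members fell in Antisense_NC at an adjusted p of at most 0.05 and none rose, out of 16 of the 53 with enough counts to be tested. All 10 fell by at least 2-fold. Over all 14389 genes tested, 32.2% were lower and 34.4% higher at that adjusted p, while 6.94% were lower and 7.19% higher by 2-fold or more. The median log2 fold change was -1.63 over the 16 members and 0.00 over all genes. The filter on low counts keeps a gene that is high in either group, so these counts describe the genes tested and not the family. HIST2H2BF, HIST2H2AA4, HIST3H2BB, HIST1H2AD, HIST1H2BJ and HIST1H3H, with 0 to 19 counts in an Antisense_NC library, passed the filter only through Ctrl_NC. They could thus be called only as lower. The 10 were HIST1H1C, 4 of 5 H2A genes tested, 4 of 7 H2B genes and HIST1H3H, while the single H4 gene tested, HIST1H4J, had a log2 fold change of -0.78 ± 0.482 (adjusted p = 0.154).

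The linker histone gene HIST1H1C was at 73.3, 77.6 and 69.9 CPM in Ctrl_NC, at 53.4, 49.5 and 50.8 in CRLM1_NC, and at 21.8, 22.0 and 27.2 CPM in the Antisense_NC libraries. The groups did not overlap. Its log2 fold change was -1.69 ± 0.0718 in Antisense_NC (adjusted p = 1.1e-21) and -0.54 ± 0.0553 in CRLM1_NC (adjusted p = 2.6e-10). The other H1 gene with enough counts, HIST1H1E (H1.4), was at 0.771, 0.921 and 1.07 CPM in Ctrl_NC and at 0.689, 0.507 and 0.409 in Antisense_NC. All its Antisense_NC values lay below those of Ctrl_NC, yet the change missed the threshold (log2 fold change -0.82 ± 0.399, adjusted p = 0.0683). The third H1 entry by level, the pseudogene HIST1H1PS1, had a mean of 0.00434 CPM over all libraries.

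HIST3H2A, an H2A gene of the small HIST3 cluster, was at 39.99, 47.1 and 34.4 CPM in Ctrl_NC, at 26.3, 27.0 and 22.2 in CRLM1_NC, and at 15.5, 14.7 and 16.6 CPM in the Antisense_NC libraries. The order of the groups was the same as for HIST1H1C, without overlap. The log2 fold change was -1.43 ± 0.0945 in Antisense_NC (adjusted p = 3.8e-15) and -0.70 ± 0.0946 in CRLM1_NC (adjusted p = 1.4e-06). Its divergent partner HIST3H2BB was at 2.48, 1.88 and 3.21 CPM in Ctrl_NC, at 1.53, 0.771 and 2.19 in CRLM1_NC, and at 0.302, 0.211 and 0.461 CPM in the Antisense_NC libraries. HIST3H2BB fell by 3.01 ± 0.376 on the log2 scale in Antisense_NC (adjusted p = 7.7e-09), while CRLM1_NC and Ctrl_NC overlapped in their values (log2 fold change -0.78 ± 0.302, adjusted p = 0.0428). That CRLM1_NC call was lost without CRLM1_NC replicate 1 or 2 and without Ctrl_NC replicate 1 or 3, with adjusted p between 0.0793 and 0.279. Over all 15 alternative fits, these included, it was lost in 8, with an adjusted p of up to 0.397.

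The H2A gene HIST1H2AC was at 20.6, 18.7 and 16.9 CPM in Ctrl_NC, at 12.5, 13.0 and 13.1 in CRLM1_NC, and at 7.11, 4.73 and 6.30 CPM in the Antisense_NC libraries, again with no overlap. It fell by 1.68 ± 0.129 on the log2 scale in Antisense_NC (adjusted p = 4.4e-14) and by 0.55 ± 0.103 in CRLM1_NC (adjusted p = 3.8e-05). HIST2H2AA4 was at 3.69, 2.76 and 4.01 CPM in Ctrl_NC, at 1.17, 2.22 and 1.99 in CRLM1_NC, and at 0.215, 0.0844 and 0.358 CPM in the Antisense_NC libraries, the last from 5, 2 and 7 counts. HIST2H2AA4 fell by 4.05 ± 0.370 in Antisense_NC (adjusted p = 4.3e-12) and by 0.97 ± 0.253 in CRLM1_NC (adjusted p = 0.0024). Against Antisense_NC it passed the filter on low counts only through Ctrl_NC, so it could be called only as lower there. HIST2H2AA3 and HIST2H2AA4 are near-identical copies, so the uniquely mapped reads counted here may be split or lost between them, and HIST2H2AA3 averaged 0.0128 CPM.

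HIST2H2BF, an H2B gene in the same cluster as HIST2H2BE, had the lowest fold change of the members tested. It was at 5.34, 5.80 and 6.33 CPM in Ctrl_NC, at 2.79, 2.13 and 2.96 in CRLM1_NC, and at 0.258, 0.169 and 0 CPM in the Antisense_NC libraries. The last 3 values came from 6, 4 and 0 counts, against 97, 145 and 142 counts in Ctrl_NC, so the fitted fold change of -5.28 ± 0.350 on the log2 scale (adjusted p = 6.3e-16) is imprecise in its size. In that comparison HIST2H2BF passed the filter on low counts only through Ctrl_NC and could be called only as lower. In CRLM1_NC the log2 fold change of HIST2H2BF was -1.17 ± 0.194 (adjusted p = 6.2e-06).

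A further pair of H2B genes and an H3 gene followed the same order of group means. HIST1H2BD was at 8.04, 8.56 and 9.45 CPM in Ctrl_NC, at 5.08, 5.85 and 8.36 in CRLM1_NC, and at 2.41, 2.66 and 2.61 CPM in the Antisense_NC libraries. Only its Antisense_NC values were clear of those of Ctrl_NC, with a log2 fold change of -1.81 ± 0.165 (adjusted p = 3.7e-12). For CRLM1_NC the value was -0.46 ± 0.156 (adjusted p = 0.0195), and this call was lost without CRLM1_NC replicate 1 or 2 and without Ctrl_NC replicate 2 or 3, with adjusted p between 0.0518 and 0.166. Over all 15 alternative fits, these included, the call was lost in 7, with an adjusted p of up to 0.495. HIST1H2BJ was at 2.64, 2.08 and 2.94 CPM in Ctrl_NC, at 1.12, 1.82 and 1.02 in CRLM1_NC, and at 0.560, 0.127 and 0.717 CPM in the Antisense_NC libraries. It fell in both, by 2.52 ± 0.370 in Antisense_NC (adjusted p = 2.2e-07) and by 0.95 ± 0.287 in CRLM1_NC (adjusted p = 0.00822), the latter with an adjusted p of 0.0537 without Ctrl_NC replicate 3. HIST1H3H, the only H3 gene above 1 CPM, was at 2.53, 2.84 and 2.10 CPM in Ctrl_NC, at 0.764, 1.45 and 1.73 in CRLM1_NC, and at 0.258, 0.802 and 0.512 CPM in the Antisense_NC libraries. HIST1H3H fell by 2.28 ± 0.343 in Antisense_NC (adjusted p = 3.4e-07) and by 0.95 ± 0.295 in CRLM1_NC (adjusted p = 0.0108). The CRLM1_NC call of HIST1H3H was lost without CRLM1_NC replicate 1 (adjusted p = 0.0983) and without Ctrl_NC replicate 2 (adjusted p = 0.0674).

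**Figure D3:**
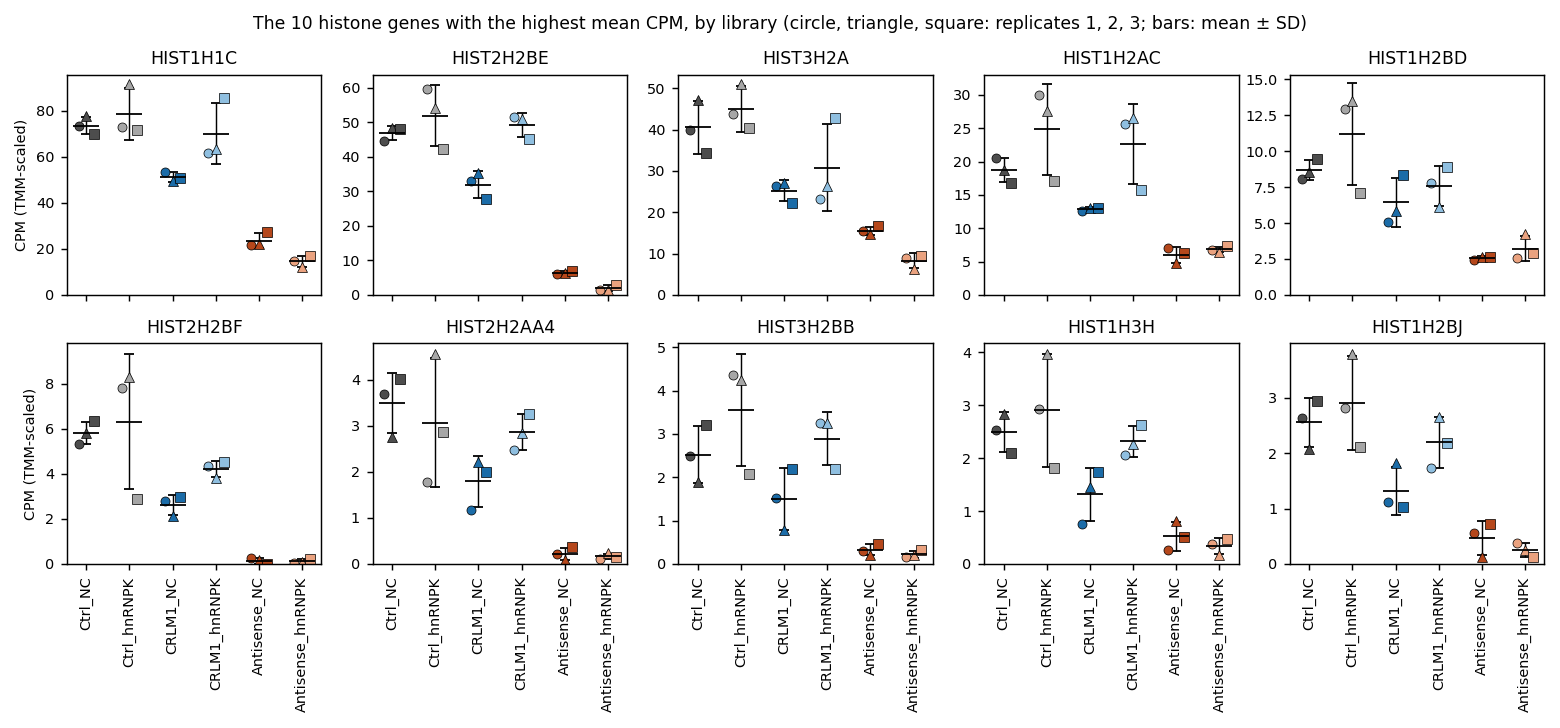
CPM in each library (points, linear axis from 0) with the mean ± SD of each group for the 10 histone cluster genes with the highest mean CPM. The HIST1H1C libraries lie at 21.8 to 27.2 CPM in Antisense_NC and at 69.9 to 77.6 CPM in Ctrl_NC.

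Not every member that could be tested passed the threshold. HIST1H2BK, an H2B gene described with polyadenylated transcripts, was at 0.881, 1.28 and 1.07 CPM in Ctrl_NC and at 0.991, 0.549 and 0.972 in Antisense_NC (log2 fold change -0.43 ± 0.362, adjusted p = 0.295). HIST1H2BN was at 1.10, 0.560 and 0.580 CPM in Ctrl_NC and at 1.38, 0.760 and 0.665 in Antisense_NC, and was the one tested member with a positive log2 fold change, 0.32 ± 0.399 (adjusted p = 0.488). HIST1H2BN was chosen after its value was seen. Of the 5 tested members with described polyadenylated forms, HIST1H1C, HIST1H2AC and HIST1H2BD fell in Antisense_NC, and HIST1H2BC (log2 fold change -0.52 ± 0.362, adjusted p = 0.21) and HIST1H2BK did not pass. Members at lower levels, such as HIST1H3D, HIST1H3B and HIST1H4E among the 3 most abundant of their classes, did not pass the filter in this comparison. Their means were 0.426, 0.0551 and 0.382 CPM in Ctrl_NC and 0.193, 0.199 and 0.174 CPM in Antisense_NC.

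In CRLM1_NC against Ctrl_NC, 9 of the 16 members tested fell and none rose, against 17.4% of all 14459 genes lower and 16.9% higher. The 9 were the same genes as in Antisense_NC apart from HIST1H2AD, whose log2 fold change was -0.14 ± 0.393 (adjusted p = 0.825) in CRLM1_NC and -1.59 ± 0.448 (adjusted p = 0.0022) in Antisense_NC. HIST1H2AD was singled out after its values were seen. Only HIST2H2BF changed by 2-fold or more, where 0.809% of all genes were lower and 0.775% higher by that much. The median log2 fold change was -0.55 over the 16 members and 0.01 over all genes. A fit of all 18 libraries together shares 1 estimate of the spread with the hnRNPK libraries that stand apart. In it none of the 9 passed (adjusted p from 0.144 to 0.495). The share of all genes that passed in that fit is not given here, so no loss particular to the members is read from it.

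In CRLM1_NC against Antisense_NC, 11 of 17 members tested rose and none fell, 9 of them by at least 2-fold, against 26.9% of all 14364 genes higher and 29.5% lower. By 2-fold or more 4.01% of all genes were higher and 3.17% lower. This comparison shares its libraries with the preceding ones. HIST2H2BF, HIST2H2AA4, HIST3H2BB, HIST1H2AD, HIST1H2BJ and HIST1H3H passed the filter on low counts only through CRLM1_NC here. They could thus be called only as higher. In the Antisense_NC libraries HIST2H2BF had 6, 4 and 0 counts, HIST2H2AA4 5, 2 and 7, and HIST3H2BB 7, 5 and 9. The highest log2 fold changes were those of HIST2H2BF (4.12 ± 0.453, adjusted p = 6.9e-10), HIST2H2AA4 (3.08 ± 0.454, adjusted p = 3.5e-07) and HIST3H2BB (2.24 ± 0.444, adjusted p = 4.8e-05). HIST2H2BE had a log2 fold change of 2.35 ± 0.109. The most abundant H1 and H2A genes, HIST1H1C and HIST3H2A, were 1.16 ± 0.0777 (adjusted p = 1.5e-15) and 0.74 ± 0.0951 (adjusted p = 2.5e-08) higher on the log2 scale.

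The hnRNPK construct was compared with its negative control within each background. In the Ctrl background with all 6 libraries, none of 20 members passed, nor did any of 14607 genes (0%). At an unadjusted p under 0.05 in this edgeR fit there were 1 of the 20 members and 15.4% of all genes. DESeq2 also gave 0 members, and its share of all genes is not given here. The hnRNPK libraries lay wholly above the NC libraries for 4 members and wholly below for 0, against 12.5% of all genes above and 8.11% below. Without Ctrl_hnRNPK replicate 3, 7 of 23 members tested rose and none fell, against 29.6% of all 15004 genes higher and 29.9% lower. A share of 7 in 23 is near that of all genes. Of the 7, 1 rose by at least 2-fold, where 5.17% of all genes were higher and 1.71% lower by that much.

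In the CRLM1 background with all 6 libraries, none of 17 members passed, nor did any of 14394 genes (0%). At an unadjusted p under 0.05 in this edgeR fit there were 9 of the 17 members and 9.25% of all genes. DESeq2 gave 0 members, and its share of all genes is not given here. The hnRNPK libraries lay wholly above the NC libraries for 8 members and wholly below for 0, against 6.67% of all genes above and 8.54% below. The median log2 fold change was 0.72 over the 17 members, all of which had positive values, and 0.03 over all genes. Without CRLM1_hnRNPK replicate 3, 7 of 19 members tested rose and none fell, 4 of them by at least 2-fold, against 29.5% of all 14685 genes higher, 29.1% lower, and 3.07% higher and 2.23% lower by 2-fold. These comparisons and that of CRLM1_NC with Ctrl_NC share the NC libraries.

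The members differed in how the third hnRNPK library lay. HIST1H2AC was at 30.0, 27.5 and 17.1 CPM in Ctrl_hnRNPK and at 25.7, 26.6 and 15.7 CPM in CRLM1_hnRNPK, so replicate 3 was the lowest in both and, in the Ctrl background, within the NC range. HIST1H1C was at 72.8, 91.7 and 71.5 CPM in Ctrl_hnRNPK and at 61.5, 63.4 and 85.5 in CRLM1_hnRNPK, and HIST3H2A was at 23.2, 26.4 and 42.7 CPM in CRLM1_hnRNPK. For HIST1H1C and HIST3H2A, replicate 3 was thus the highest of the CRLM1_hnRNPK libraries, above the CRLM1_NC values given earlier. Without that library the log2 fold change in the CRLM1 background was 1.07 ± 0.107 for HIST1H2AC (adjusted p = 1.2e-09), 0.33 ± 0.0691 for HIST1H1C (adjusted p = 0.00013) and 0.02 ± 0.104 for HIST3H2A (adjusted p = 0.867). With all libraries these values were 0.87 ± 0.244 (adjusted p = 0.533), 0.49 ± 0.178 (adjusted p = 0.533) and 0.33 ± 0.244 (adjusted p = 0.62). In the Ctrl background without replicate 3, HIST1H2AC had a log2 fold change of 0.65 ± 0.11 (adjusted p = 6.6e-05) and HIST1H1C one of 0.18 ± 0.0881 (adjusted p = 0.0826).

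The highest fold changes without the third library were in genes of low counts. HIST1H2AG was at 0.551, 0.0800 and 0.312 CPM in Ctrl_NC and at 0.864, 1.13 and 0.957 in Ctrl_hnRNPK, from 2 to 10 and 19 to 28 counts. Its libraries did not overlap in the Ctrl background, with a log2 fold change of 1.76 ± 0.565 (adjusted p = 0.0123 without replicate 3; 0.32 with all libraries). In the CRLM1 background HIST1H2AG was at 0.225, 0.0907 and 0.408 CPM with NC and at 0.732, 0.737 and 0.402 with hnRNPK, and passed without replicate 3 (1.66 ± 0.609, adjusted p = 0.0205). In both backgrounds HIST1H2AG passed the filter on low counts only through the hnRNPK group, so it could be called only as higher. HIST1H1E was at 1.86, 1.66 and 1.11 CPM in Ctrl_hnRNPK and at 0.869, 1.48 and 1.12 in CRLM1_hnRNPK, against 0.764, 0.454 and 0.204 in CRLM1_NC. Without replicate 3 HIST1H1E rose by 0.94 ± 0.341 in the Ctrl background (adjusted p = 0.0239) and by 1.32 ± 0.494 in the CRLM1 background (adjusted p = 0.0236). In the Ctrl background HIST1H2BK, at 1.94, 1.82 and 1.36 CPM with hnRNPK, had a log2 fold change of 0.81 ± 0.323 (adjusted p = 0.0388) without replicate 3. In the CRLM1 background HIST3H2BB, at 3.25, 3.24 and 2.19 CPM with hnRNPK, had one of 1.18 ± 0.311 (adjusted p = 0.0018).

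In the Antisense background, where the third library correlated at 0.988 to 0.994 with its own replicates, 2 of 13 members tested rose and 2 fell. Among all 14501 genes 33.4% rose and 30.5% fell, so the members' share of 4 in 13 was below that of all genes. By 2-fold or more 1 member rose and 0 fell, against 7.28% of all genes higher and 6.1% lower. Without Antisense_hnRNPK replicate 3, the same 4 members passed in the same directions and HIST1H2AM fell as well (log2 fold change -1.45 ± 0.606, adjusted p = 0.0461), 5 of 16 tested, against 31% of 14851 genes higher and 31.3% lower. In that fit 2 members rose and 2 fell by 2-fold or more, where 7.58% of all genes were higher and 7.86% lower by that much. HIST1H2AM was singled out after its values were seen. It had 7, 11 and 16 counts in Antisense_NC and 4, 7 and 0 in Antisense_hnRNPK, so it entered that fit through Antisense_NC. HIST1H1C was at 14.8, 12.1 and 16.8 CPM in Antisense_hnRNPK, below each of the Antisense_NC values, with a log2 fold change of -0.71 ± 0.129 (adjusted p = 0.00026). After removal of a trend with GC content and length this value was -0.30 with an adjusted p of 0.0958. HIST3H2A was at 9.05, 6.29 and 9.51 CPM, also below each Antisense_NC value, and fell by 0.92 ± 0.148 (adjusted p = 8.4e-05). The genes that rose had low counts. HIST1H1E was at 1.06, 1.20 and 0.857 CPM and rose by 0.94 ± 0.355 (adjusted p = 0.0309), a call that was lost without replicate 1 or 2 of Antisense_hnRNPK and without replicate 2 or 3 of Antisense_NC (adjusted p between 0.0776 and 0.114). Over all 15 alternative fits, these included, it was lost in 7. HIST2H4B, an H4 gene, was at 0.129, 0.211 and 0.102 CPM in Antisense_NC and at 0.417, 0.551 and 0.468 in Antisense_hnRNPK, a rise of 1.64 ± 0.506 (adjusted p = 0.0108, or 0.051 with DESeq2). These values came from 3, 5 and 2 counts and from 11, 17 and 12 counts. HIST2H4B thus passed the filter on low counts only through the group where it was high, and could be called only as higher. HIST1H2AC, at 6.78, 6.45 and 7.29 CPM in Antisense_hnRNPK, overlapped with Antisense_NC (log2 fold change 0.17 ± 0.169, adjusted p = 0.387), as did HIST1H2BD at 2.58, 4.21 and 2.88 CPM (0.34 ± 0.232, adjusted p = 0.219). HIST2H2BF and HIST2H2AA4 had at most 7 counts in each of these 6 libraries and could not be tested.

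HIST2H2BE, the gene that led to this family, was at 59.5, 54.2 and 42.2 CPM in Ctrl_hnRNPK, at 51.6, 50.9 and 45.3 in CRLM1_hnRNPK and at 1.44, 1.33 and 2.92 in Antisense_hnRNPK. With hnRNPK its libraries lay wholly above NC in the CRLM1 background, wholly below NC in the Antisense background, and on both sides of NC in the Ctrl background. The log2 fold changes of hnRNPK over NC were 0.12 ± 0.179, 0.67 ± 0.181 and -1.78 ± 0.252 in the Ctrl, CRLM1 and Antisense backgrounds (SE, no test). The difference between the CRLM1 and Antisense values, 2.44 on the log2 scale in a joint fit, chose the family. The corresponding difference between CRLM1 and Ctrl was 0.51. The differences of the other members in this contrast are not tested here, since it chose the family. That of HIST1H1C is given under the results flagged for a closer look, as a description.

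**Figure D4:**
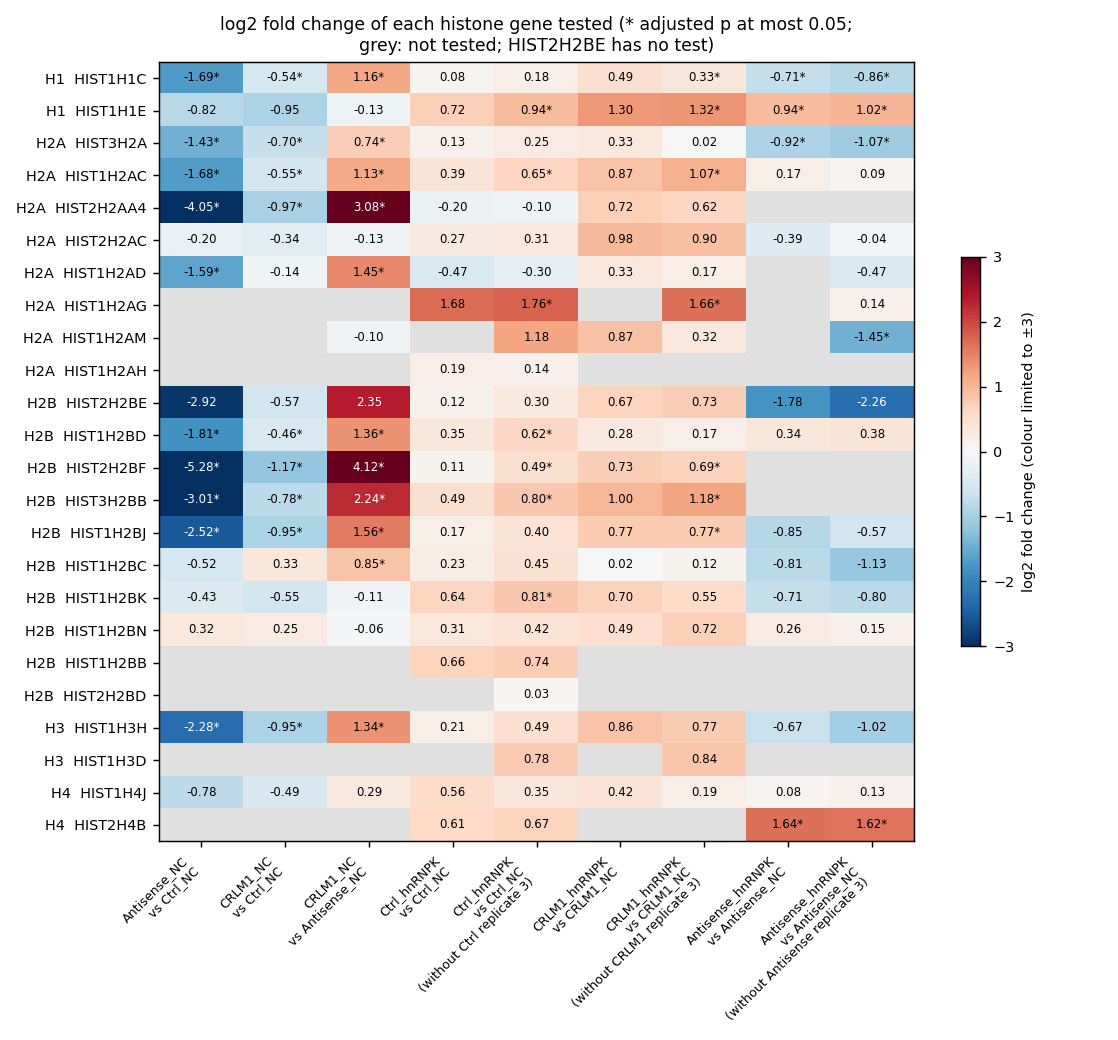
log2 fold change of each histone cluster gene tested (rows, by class and mean CPM) in the 6 comparisons and in the hnRNPK comparisons without the third hnRNPK library (columns), with red higher and blue lower in the first group named. Stars mark an adjusted p of at most 0.05, grey cells were not tested, and the first column holds the lowest values, -5.28 for HIST2H2BF and -4.05 for HIST2H2AA4.

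The related lists were set beside the cluster genes in the same fits. Of 11 variant histone genes tested in Antisense_NC against Ctrl_NC, 9 fell and 1 rose, none of them by 2-fold, with a median log2 fold change of -0.41. As for each list in this comparison, the shares of all genes were 32.2% lower and 34.4% higher. The 3 with the smallest adjusted p were H1F0 (-0.81 ± 0.0295, adjusted p = 1e-23), H3F3A, an H3.3 gene (-0.69 ± 0.0375, adjusted p = 2.2e-18), and H2AFY, which encodes macroH2A1 (-0.64 ± 0.0413, adjusted p = 3e-16). In CRLM1_NC 7 variant genes fell and 1 rose, where 17.4% of all genes were lower and 16.9% higher. With hnRNPK in the Antisense background 3 rose and 4 fell, a share of 7 in 11 beside 33.4% of all genes higher and 30.5% lower, among them H2AFX, the H2A.X gene (-1.18 ± 0.0746, adjusted p = 9.3e-08), and H2AFZ (0.64 ± 0.1, adjusted p = 6.7e-05).

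Among 12 genes of histone transcription and histone message 3′ end processing, 8 rose and 1 fell in Antisense_NC, beside 34.4% of all genes higher and 32.2% lower. NPAT, a coactivator of histone gene transcription, was at 12.9 ± 2.18 CPM in Antisense_NC and 3.32 ± 1.04 in Ctrl_NC, a rise of 1.94 ± 0.166 on the log2 scale (adjusted p = 1.2e-12). ZNF473, which takes part in histone message processing, rose by 1.49 ± 0.187 (adjusted p = 7.9e-09), and CPSF3, the endonuclease of the cleavage complex, by 0.73 ± 0.0986 (adjusted p = 3.6e-08). The list's median log2 fold change was 0.26. NPAT and CPSF3 also rose in CRLM1_NC, by 0.87 ± 0.195 (adjusted p = 0.00048) and 0.39 ± 0.0968 (adjusted p = 0.0015).

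Of 15 histone chaperones, 8 rose and none fell in Antisense_NC, against the same shares of all genes (34.4% higher, 32.2% lower), led by ASF1B (0.99 ± 0.0621, adjusted p = 1.3e-16), CABIN1 (0.54 ± 0.0386, adjusted p = 4.4e-15) and CHAF1A (0.94 ± 0.0679, adjusted p = 6.5e-15), which deliver H3 and H4 or belong to complexes that do. In CRLM1_NC 9 rose and 1 fell, where 16.9% of all genes were higher and 17.4% lower. Of 22 S-phase genes, 5 rose and 10 fell in Antisense_NC with a median log2 fold change of -0.07, where all genes were 34.4% higher and 32.2% lower. The 3 with the smallest adjusted p, E2F1, MCM4 and TYMS, fell by 1.21 ± 0.0617 (adjusted p = 2.7e-19), 0.77 ± 0.0407 (adjusted p = 9.6e-19) and 0.58 ± 0.0407 (adjusted p = 3.2e-15). In CRLM1_NC 5 S-phase genes rose and 6 fell, with 16.9% and 17.4% of all genes. Whether the share of cells in S phase differed between the groups was not tested.

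With hnRNPK in the Antisense background, 8 processing genes rose and 2 fell, 7 chaperones rose and 5 fell, and 8 S-phase genes rose and 9 fell. Of all genes 33.4% rose and 30.5% fell, and the S-phase shares of 8 and 9 in 22 were near these. CPSF2, a subunit of the cleavage complex, rose by 1.04 ± 0.0936 (adjusted p = 5.3e-07), CABIN1 fell by 1.31 ± 0.107 (adjusted p = 2.8e-07), and CDT1, a replication licensing factor, fell by 1.08 ± 0.0798 (adjusted p = 1.4e-07). In the Ctrl and CRLM1 backgrounds no gene of these lists passed with all libraries. Without replicate 3, processing genes rose in 7 and fell in 2 of 12 in the Ctrl background, and rose in 6 and fell in 3 in the CRLM1 background. S-phase genes rose in 7 and fell in 11 of 22 in the Ctrl background, and rose in 10 and fell in 6 in the CRLM1 background. The shares of all genes in these fits were 29.6% higher and 29.9% lower in the Ctrl background and 29.5% higher and 29.1% lower in the CRLM1 background.

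**Figure D5:**
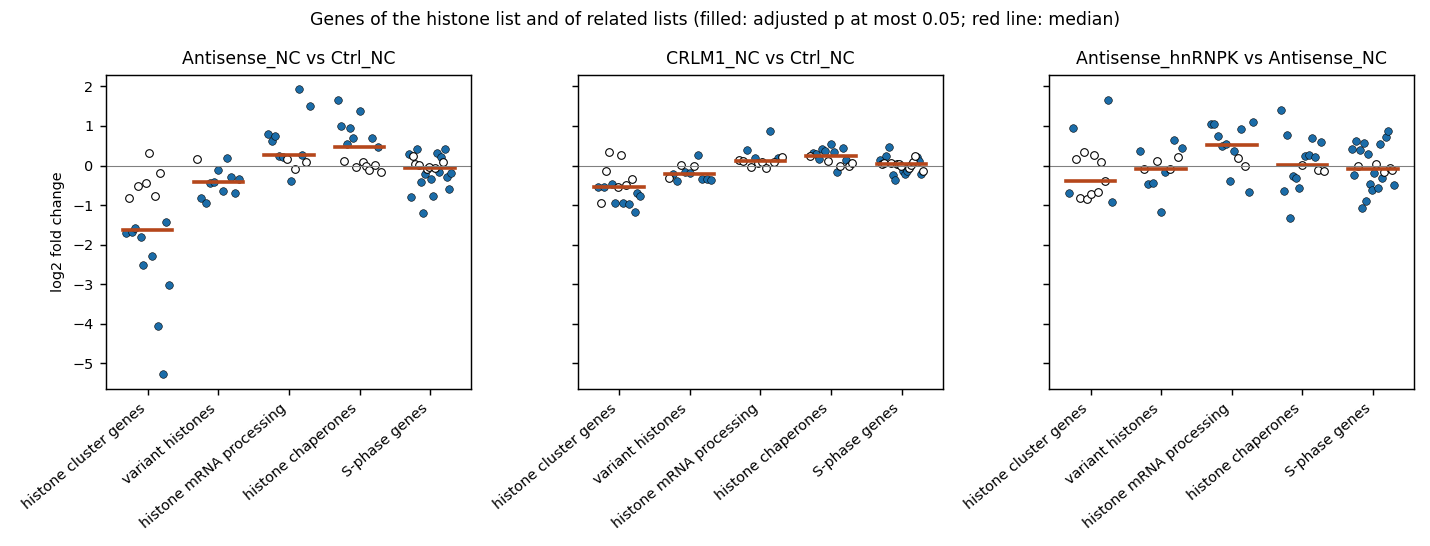
log2 fold change (vertical axis) of each gene tested in the histone cluster family without HIST2H2BE and in the related lists, in 3 comparisons, with filled points at an adjusted p of at most 0.05 and a red line at each median. In Antisense_NC against Ctrl_NC the medians are -1.63 for the cluster genes, -0.41 for variant histones, 0.26 for processing genes, 0.46 for chaperones and -0.07 for S-phase genes.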

How the data were processed

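RNA of HCT116 cells was sequenced in 18 libraries prepared with the KAPA RNA HyperPrep kit. The submitters' processing notes name bcl2fastq, TopHat2, edgeR and the build GRCh38. The deposited count table holds the authors' number of uniquely mapped reads per gene, without normalization. In the deposited FPKM table the authors divided by exon length and mapped fragments, and 125 of the 31004 genes are absent from it. Strand use in counting is not stated, so overlapping genes are uncertain, and near-identical histone copies lose reads that map to several of them. The authors' counts have no molecular identifiers, so errors cover counting and replicate spread only. A floor of 3 counts limits a count of 0.

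Groups were taken from the sample titles. Each comparison of 2 groups was fitted to its 6 libraries in R 4.3.3 with edgeR 4.0.16 (TMM, filterByExpr, robust quasi-likelihood F-test, two-sided, no block), and p-values were adjusted by Benjamini-Hochberg over all genes tested. A change was counted at an adjusted p of at most 0.05, and 2-fold means a ratio of at least 2 or at most 0.5. Differences of hnRNPK effects came from joint fits of 4 groups and are given as a description, since the contrast of the CRLM1 and Antisense backgrounds chose the family. All libraries entered as labelled. The labels give separate replicates of each group, and p-values measure the spread between them.

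The members, related lists, tests and alternatives were chosen with earlier results of these data known. The genes named are HIST2H2BE, the 3 members of each class with the highest mean CPM, the 3 highest and 3 lowest log2 fold changes per comparison among members that passed (without the third hnRNPK library where none passed with it), and at most 3 genes of a related list by smallest adjusted p. Members were matched to Gencode version 44 by Ensembl ID (50) or to RefSeq by older symbol (4). Alternatives were RLE size factors, DESeq2 1.42.0, no filter, limma 3.58.1 on log2(FPKM + 0.1) and log2(FPKM + 1), 1 fit of all libraries, a replicate block, removal of a GC and length trend, and leaving out each library. The scripts were tested on simulated data. Same-numbered replicates of compared groups correlated in their deviations at -0.093 to 0.046, so the numbers do not pair the samples.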

Additional observations from a re-analysis of the deposited data

Results flagged for a closer look

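Among the 13 members with a mean of at least 1 CPM, 2 had all hnRNPK libraries above NC in 1 background and all below NC in another, as did 252 of all 12959 genes at that level (1.94%). Both members had hnRNPK above NC in the CRLM1 background and below NC in the Antisense background, as did 72 of these genes (0.556%). Nothing is read from the count of members, since 1 of the 2 is HIST2H2BE, whose contrast chose the family. For HIST2H2BE the log2 ratio of mean CPM with hnRNPK over NC was 0.62 in the CRLM1 background and -1.76 in the Antisense background, a difference of 2.39. For HIST1H1C it was 0.45 and -0.70, a difference of 1.15. These differences of mean CPM were not tested, and no test of this contrast is used here. Groups of 3 libraries are too small for a test of single outlying libraries.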

How the results depend on the processing

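Among the fold changes recomputed under the alternatives, 0 changed direction, 36 values fell short of an adjusted p of 0.05 that they had passed (11 of them in 1 fit of all libraries) and 5 passed it only without replicate 3 of an hnRNPK group. Counts of members at an adjusted p of at most 0.05 ran from 10 to 14 in Antisense_NC against Ctrl_NC, the highest with no filter on low counts, and were 10 without any 1 library. With no filter 25673 genes were tested, against 14389 with it, so the 14 cannot be set against 10 of 16. Members tested and shares of all genes are given above only for the fits without replicate 3 of an hnRNPK group. For the other alternatives they are not given here, so no gain or loss particular to the members is read from the counts in this section. The 9 members in CRLM1_NC against Ctrl_NC became 0 in 1 fit of all libraries. In the CRLM1 background the count with hnRNPK went from 0 to 1 after removal of the GC and length trend, and in the Antisense background from 4 to 2 with DESeq2. When each library was left out in turn, the count ranged from 6 to 9 for CRLM1_NC against Ctrl_NC, from 0 to 7 with hnRNPK in the Ctrl background, from 0 to 7 in the CRLM1 one, the 7 each time without hnRNPK replicate 3, and from 3 to 5 in the Antisense background. It was 10 for CRLM1_NC against Antisense_NC, against 11 with all libraries. The HIST2H2BE difference between the CRLM1 and Antisense backgrounds, 2.44, ranged from 2.22 to 2.86, the highest without Antisense_hnRNPK replicate 3. It was 2.94 without replicate 3 of both hnRNPK groups, 2.14 on log2(FPKM + 0.1) and 1.496 on log2(FPKM + 1), and the cause was not tested. The difference between CRLM1 and Ctrl ranged from 0.38 to 0.63. With a replicate block the HIST2H2BE differences were 2.45 and 0.53, and the counts were 10 for Antisense_NC and 9 for CRLM1_NC against Ctrl_NC, 10 for CRLM1_NC against Antisense_NC, and 0, 0 and 4 with hnRNPK in the Ctrl, CRLM1 and Antisense backgrounds. The block thus moved no count by over 1.5 times, and not every library correlated best with its own number. On log2(FPKM + 0.1) the median log2 fold change of all genes was 0.21 in Antisense_NC against Ctrl_NC. Depth limits the members under 1 CPM, which have few counts in each library.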
